A study of Mus musculus with 12 samples.

Results

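Expression of 8 genes whose protein products are measured in urine or blood as markers of acute kidney injury was followed in 12 mouse kidneys. The genes are Havcr1, Lcn2, Clu, Spp1, Timp1, Timp2, Igfbp7 and Cst3. They were taken by symbol from the probes of an Agilent one-colour microarray, and all 8 were among the 25947 genes and transcripts tested. The 4 groups of 3 male mice, all on a C57/6J background, were Jaml knockout (KO) mice 24 h after ischemia-reperfusion injury (IRI), KO mice after a sham operation, wild-type (WT) mice 24 h after IRI, and WT mice after a sham operation. In IRI the blood flow of both kidneys is stopped and then released. The labels disagree on the ischemic time, at 40 min in the series' design and 30 min in the treatment protocol. Which time was used, how the Jaml allele was made and the age of the mice are not given in the sources used here. Jaml encodes an adhesion molecule of leukocytes and epithelia, and the design sets its loss beside injury.

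The 8 proteins become markers in different ways. KIM-1, the product of Havcr1, is a membrane receptor of injured proximal tubule cells whose outer part is shed into urine. NGAL (Lcn2), clusterin (Clu) and osteopontin (Spp1) are secreted proteins made by stressed tubule cells, and NGAL is also stored in neutrophil granules. TIMP-1 and TIMP-2 inhibit matrix metalloproteinases, and TIMP-2 is measured in urine together with IGFBP7, a secreted protein that binds insulin-like growth factors. Cystatin C (Cst3) is a cysteine protease inhibitor made by most cells and cleared by the glomerulus, so its use as a marker rests on filtration rather than on synthesis in the kidney.

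The genes were read by 12 probes, and 11 of them exceeded background clearly on each of the 12 arrays. The exception was 1 of the 2 Clu probes, which was above background on 1 array and was left out. Lcn2, Timp2 and Cst3 each kept a pair of probes. Each gene is represented by its brighter probe. Levels are log2 signals minus the 75th percentile of the array, and a level says nothing about one gene against another. Of the 4 probes below, those of Havcr1 and Timp1 gave the levels of these genes, and those of Lcn2 and Timp2 are the other probe of the pair, shown because they check the brighter one. They are 60-base strands in the sense of the transcript, with positions from the array files on build mm9. The Havcr1 probe is at chr11:46592056-46592115 (plus strand) and the Timp1 probe at chrX:20451675-20451733 (plus strand). The Lcn2 probe shown spans chr2:32241037-32241281 (minus strand) and the Timp2 probe chr11:118171964-118178741 (minus strand), which is 245 and 6778 bases of genome for 60 bases of probe, so both cross an intron.
Havcr1: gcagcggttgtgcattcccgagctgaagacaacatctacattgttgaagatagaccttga
Lcn2, intron-crossing probe: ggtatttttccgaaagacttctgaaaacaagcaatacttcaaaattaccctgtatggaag
Timp1: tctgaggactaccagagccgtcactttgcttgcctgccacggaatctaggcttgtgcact
Timp2, intron-crossing probe: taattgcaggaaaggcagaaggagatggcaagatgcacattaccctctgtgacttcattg

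On each array 62.9% to 68.0% of probes were well above background, and none was saturated. All tubule and podocyte markers examined were above background on at least 1 array of every group. Jaml read -3.54, -2.59 and -3.18 in KO sham kidneys, against -0.26, -0.26 and -0.44 in WT sham kidneys (log2 fold change -2.79 ± 0.56 SE, limma adjusted p = 0.0152). After IRI Jaml read -1.89, -2.70 and -3.0 in KO kidneys, against 0.55, -1.80 and -1.64 in WT kidneys (-1.57 ± 0.56, adjusted p = 0.153), so that WT IRI replicate 1 stood well above the other arrays. All KO arrays were on 1 slide and all WT arrays on another, so slide and genotype cannot be told apart in any difference between KO and WT. Sham and IRI were compared within a slide. On the WT slide the sham arrays were all in row 1 and the IRI arrays all in row 2, so row and injury cannot be told apart in WT. On the KO slide the sham arrays and IRI replicate 1 were in row 1, and IRI replicates 2 and 3 were in row 2. WT IRI replicate 1 stood farthest from its group, with correlations of 0.968 and 0.976 to the other WT IRI arrays.

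The kidney's response to IRI divided the 8 genes. Havcr1, Lcn2 and Timp1 rose many-fold in both genotypes, Clu passed the test in WT alone, Spp1 passed only when the genotypes were averaged, and Timp2, Igfbp7 and Cst3 passed in neither genotype nor in their average. In KO kidneys 3 of 8 genes passed, all higher, where 6.16% of all genes passed in either direction and 2.1% were higher. In WT kidneys 4 of 8 passed, all higher, where 12% of all genes passed and 6.08% were higher. Averaged over genotypes 5 of 8 passed, all higher, where 20.2% of all genes passed and 8.71% were higher. The median log2 fold change of the 8 genes was 0.58 in KO and 0.88 in WT, against -0.08 and -0.01 over all genes.

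**Figure D1:**
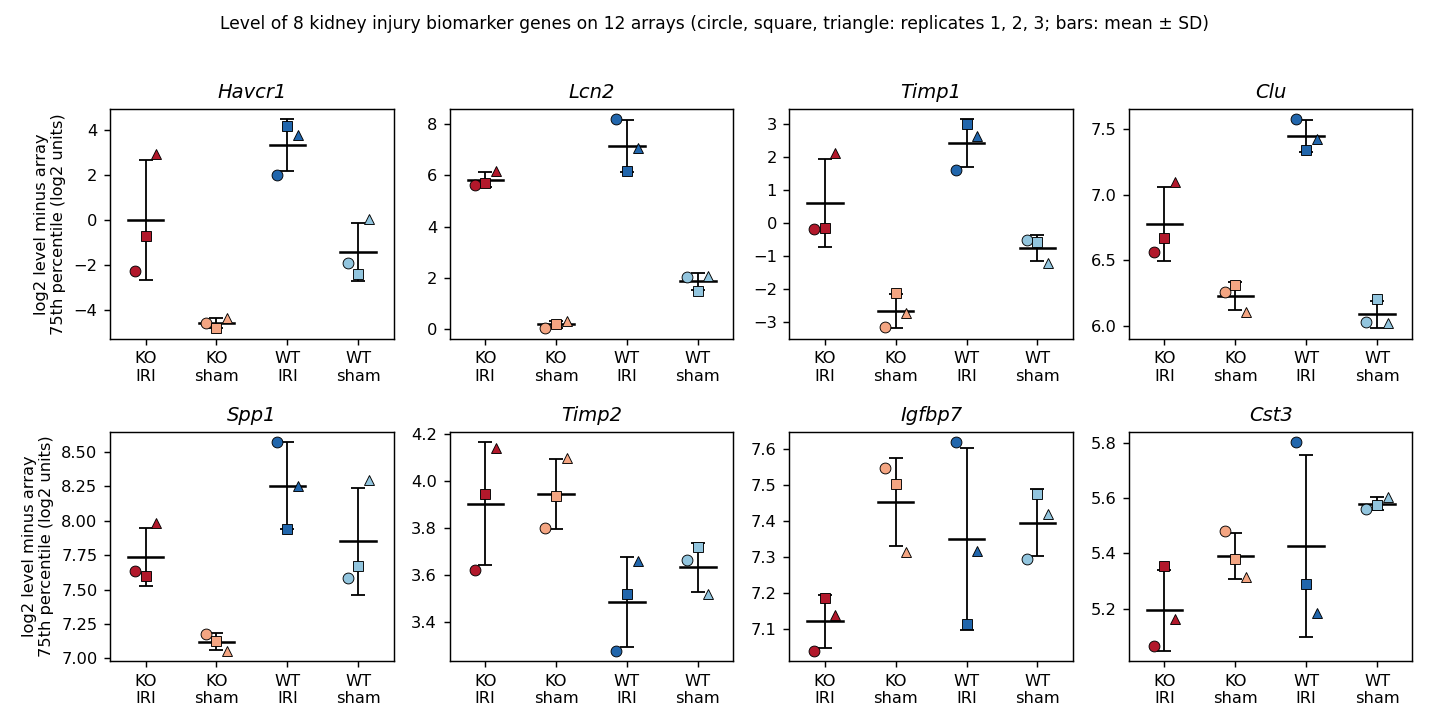
Level of each gene on each array (log2 signal minus the array's 75th percentile, log2 units), with groups along the horizontal axis in the order KO IRI, KO sham, WT IRI, WT sham. Circles, squares and triangles are replicates 1, 2 and 3, and bars give the mean ± SD (n = 3); Havcr1, Lcn2 and Timp1 are higher on every IRI array than on every sham array of the same genotype, and each panel has its own vertical scale.

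Havcr1, the phagocytic receptor of damaged tubule cells, had the widest spread. It read -2.27, -0.70 and 2.92 in KO IRI kidneys, against -4.56, -4.79 and -4.33 in KO sham kidneys. It read 2.01, 4.16 and 3.78 in WT IRI kidneys, against -1.91, -2.38 and 0.04 in WT sham kidneys. IRI and sham did not overlap within a genotype, but KO IRI replicates 1 and 2 lay inside the range of WT sham, and only replicate 3 lay inside that of WT IRI. The rise was 23.3-fold in KO (95% CI 3.95 to 137, log2 fold change 4.54 ± 1.15 SE, limma adjusted p = 0.0458) and 26.6-fold in WT (95% CI 4.52 to 157, 4.73 ± 1.15, adjusted p = 0.0273). The SD of Havcr1 among KO IRI kidneys was 2.66, above 99.97% of genes in that group, against 0.23 among KO sham kidneys. The KO call was lost in 12 of 22 alternatives, with a log2 fold change of 3.07 (adjusted p = 0.0841) without KO IRI replicate 3, and the WT call in 5 of 22, with 4.25 (adjusted p = 0.0991) without WT sham replicate 2. Summed neutrophil markers, in units of the 75th percentile signal, were 4.89 to 12.3 in KO IRI, 1.41 to 2.35 in KO sham, 41.3 to 52.6 in WT IRI and 6.55 to 15.1 in WT sham kidneys, and their part in this or the other differences was not tested.

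Lcn2, which encodes the siderophore-binding protein NGAL, rose in both genotypes. It read 5.64, 5.72 and 6.16 in KO IRI kidneys, against 0.05, 0.20 and 0.35 in KO sham kidneys. It read 8.19, 6.17 and 7.07 in WT IRI kidneys, against 2.03, 1.51 and 2.08 in WT sham kidneys. Every IRI array lay above every sham array of either genotype. The rise was 49.9-fold in KO (95% CI 26.6 to 93.7, log2 fold change 5.64 ± 0.41, limma adjusted p = 0.000354) and 38.6-fold in WT (95% CI 20.6 to 72.5, 5.27 ± 0.41, adjusted p = 0.000303). From the top of 25947 genes Lcn2 ranked at place 6 in KO and 15 in WT, and Havcr1 at 12 and 25. The intron-crossing Lcn2 probe rose by 5.87 ± 0.41 in KO and 5.29 ± 0.41 in WT on the log2 scale. Both calls held in all 22 alternatives. In these whole-kidney samples fewer cells of a type and less RNA per cell cannot be told apart. Of the 5 neutrophil markers 2 rose and 0 fell in KO IRI and 4 rose and 1 fell in WT IRI, and all 5 were above background on at least 1 array in WT sham kidneys too. The median log2 fold change of the 5 markers was 2.33 in KO and 3.59 in WT. The KO median is the value of Cxcr2, which no KO sham array and 1 of 3 WT sham arrays measured above background. S100a8, S100a9, Retnlg and Cxcr2 had higher means in IRI than in sham kidneys of both genotypes. Only Ly6g, a neutrophil surface marker gene, went the other way. It averaged -0.02 in KO IRI and 0.15 in KO sham kidneys, and 1.15 in WT IRI and 2.10 in WT sham kidneys.

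Clu, which encodes the extracellular chaperone clusterin, read 6.57, 6.67 and 7.09 in KO IRI kidneys, against 6.26, 6.31 and 6.11 in KO sham kidneys. It read 7.57, 7.34 and 7.42 in WT IRI kidneys, against 6.03, 6.21 and 6.03 in WT sham kidneys. IRI arrays were above sham arrays in both genotypes, and the 3 KO IRI values lay below the 3 WT IRI values. Clu was 1.47-fold higher in KO IRI (95% CI 1.16 to 1.84, limma adjusted p = 0.059), which did not pass, and rose 2.56-fold in WT (95% CI 2.03 to 3.23, adjusted p = 0.00137). In KO it passed under 7 of 22 alternatives. The response in KO minus that in WT was -0.81 ± 0.21 (95% CI -1.28 to -0.34) with an unadjusted p of 0.00331 and an adjusted p of 0.296, so the difference in response did not pass over all genes.

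Spp1, which encodes the adhesive phosphoprotein osteopontin, was among the brightest probes, at or above the 99.2 percentile on every array. It read 7.63, 7.60 and 7.98 in KO IRI kidneys, against 7.18, 7.13 and 7.05 in KO sham kidneys. It read 8.57, 7.94 and 8.25 in WT IRI kidneys, against 7.58, 7.67 and 8.30 in WT sham kidneys. The groups were apart in KO and overlapped in WT through WT sham replicate 3. The log2 fold change was 0.62 ± 0.22 in KO (limma adjusted p = 0.133) and 0.40 ± 0.22 in WT (adjusted p = 0.247). Averaged over genotypes it was 0.51 ± 0.15 (adjusted p = 0.0408), a call lost in 11 of 21 alternatives, down to 0.43 (adjusted p = 0.0578) without WT IRI replicate 1. Its mean spot signal ran from 94990 to 258105, with the brightest spot of an array at 268822 to 307725.

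Timp1, the inducible inhibitor of matrix metalloproteinases, read -0.18, -0.15 and 2.13 in KO IRI kidneys, against -3.15, -2.13 and -2.74 in KO sham kidneys. It read 1.62, 3.00 and 2.65 in WT IRI kidneys, against -0.51, -0.57 and -1.20 in WT sham kidneys. Groups were apart in both genotypes, and KO IRI replicate 3 alone reached the range of WT IRI, as for Havcr1. The rise was 9.66-fold in KO (95% CI 3.84 to 24.2, log2 fold change 3.27 ± 0.60, limma adjusted p = 0.0139) and 9.07-fold in WT (95% CI 3.61 to 22.8, 3.18 ± 0.60, adjusted p = 0.0118). The KO call was lost without KO sham replicate 1 (3.03, adjusted p = 0.0628) or replicate 3 (3.24, adjusted p = 0.055).

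Timp2, the constitutive relative of Timp1, moved little. Its brighter probe read 3.62, 3.94 and 4.14 in KO IRI kidneys, against 3.80, 3.94 and 4.10 in KO sham kidneys. It read 3.28, 3.52 and 3.66 in WT IRI kidneys, against 3.66, 3.72 and 3.52 in WT sham kidneys. IRI and sham overlapped in both genotypes, and the log2 fold changes were -0.04 (95% CI -0.40 to 0.31, limma adjusted p = 0.916) in KO and -0.15 (95% CI -0.50 to 0.21, adjusted p = 0.582) in WT. The intron-crossing Timp2 probe had the opposite sign, at 0.33 ± 0.13 in KO (adjusted p = 0.181 over all probes) and 0.17 ± 0.13 in WT (adjusted p = 0.425). Neither probe passed, so the sign of any small Timp2 change is not settled.

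Igfbp7 read 7.04, 7.19 and 7.14 in KO IRI kidneys, against 7.55, 7.50 and 7.32 in KO sham kidneys. It read 7.62, 7.12 and 7.32 in WT IRI kidneys, against 7.29, 7.47 and 7.42 in WT sham kidneys. KO IRI lay wholly below KO sham, while the WT groups overlapped. The log2 fold change of Igfbp7 was -0.33 ± 0.14 in KO (limma adjusted p = 0.208) and -0.05 ± 0.14 in WT (adjusted p = 0.868), and neither passed. The genes nearest it in profile, Ftl1, ND2 and Ppia, also averaged lower in KO IRI (7.47, 6.69 and 8.14) than in KO sham (7.79, 7.04 and 8.41). The SD of Igfbp7 over the 12 arrays was 0.185, and 0.119 after quantile normalization. Whether the separation is particular to Igfbp7 was not tested. Cst3 read 5.07, 5.36 and 5.16 in KO IRI kidneys, against 5.48, 5.38 and 5.31 in KO sham kidneys. It read 5.80, 5.29 and 5.19 in WT IRI kidneys, against 5.56, 5.58 and 5.61 in WT sham kidneys. Cst3 groups overlapped in both genotypes, and WT IRI replicate 1 was the highest array. The log2 fold change of Cst3 was -0.20 (95% CI -0.55 to 0.16, adjusted p = 0.535) in KO and -0.15 (95% CI -0.51 to 0.20, adjusted p = 0.564) in WT. Its other probe gave -0.18 and -0.20. Cst3 passed as lower in WT in 2 of 22 alternatives, both with array weights. Averaged over genotypes Cst3 passed as lower in 3 of 21 (limma adjusted p down to 0.0027), with array weights or without WT IRI replicate 1. Igfbp7 did so in 1 of 21, without WT IRI replicate 1 (adjusted p = 0.0381).

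**Figure D2:**
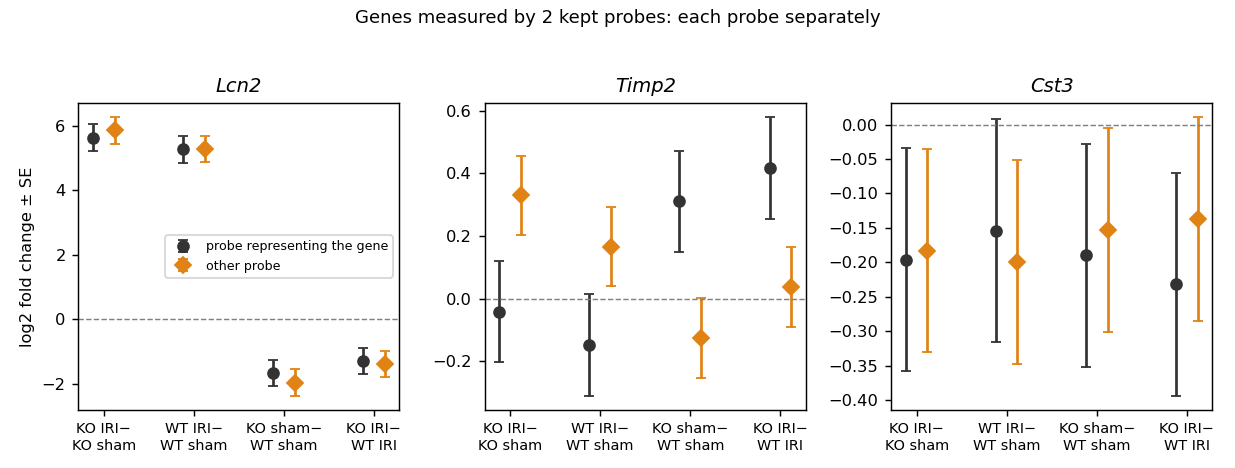
log2 fold changes ± SE (n = 3 per group) for the 3 genes kept with 2 probes, with the 4 comparisons along the horizontal axis and each probe as its own symbol. The probes lie within 1 SE of each other for Lcn2 and Cst3 in all 4 comparisons, while for Timp2 they take opposite signs in KO IRI minus KO sham, WT IRI minus WT sham and KO sham minus WT sham.

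Promoter letters were examined in the 250 bases before each RefSeq start site on build GRCm38.p6, which held an entry for 7 of the 8 genes. The motifs, on both strands, were TGANTCA (AP-1), GGG and CC with any 5 bases between them (NF-kB), TTCNNNGAA (STAT), ACGTG (hypoxia response core) and TATAAA. Of 32851 such windows 6.7%, 45.8%, 7.0%, 16.6% and 12.4% hold them, in that order. Shown are Lcn2 and Timp1, which rose in both genotypes, and Timp2, which passed in neither. Of the genes not shown, Cst3, which did not pass, holds 2 NF-kB matches, and none of the 3 windows of Havcr1, which rose, holds an NF-kB match. ACGTG is in the windows of Havcr1 start sites 2 and 3, and in that of Igfbp7, which did not pass. TATAAA is in a window of Spp1, which passed only when the genotypes were averaged. Capitals mark matches, and 3 of the NF-kB matches of Timp1 overlap each other. Lcn2 holds 1 NF-kB match, on the other strand, at bases -102 to -93. Timp1 holds 4 of them from -24 to -2, and 1 of ACGTG at -82 to -78. The Timp2 window holds none of the 5. A match describes letters and is not a bound site. The windows are chr2:32387740-32387989 (minus strand) for Lcn2, chrX:20869916-20870165 (plus strand) for Timp1 and chr11:118355412-118355661 (minus strand) for Timp2.
Lcn2: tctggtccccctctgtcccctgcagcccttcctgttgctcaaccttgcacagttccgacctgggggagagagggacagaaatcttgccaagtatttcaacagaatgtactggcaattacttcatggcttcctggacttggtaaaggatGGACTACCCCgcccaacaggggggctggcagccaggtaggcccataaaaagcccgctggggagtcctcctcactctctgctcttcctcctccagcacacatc
Timp1: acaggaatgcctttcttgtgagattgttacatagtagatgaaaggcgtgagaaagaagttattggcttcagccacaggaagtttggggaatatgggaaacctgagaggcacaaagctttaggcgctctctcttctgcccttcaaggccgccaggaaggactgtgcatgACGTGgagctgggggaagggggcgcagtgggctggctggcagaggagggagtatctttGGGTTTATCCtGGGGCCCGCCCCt
Timp2: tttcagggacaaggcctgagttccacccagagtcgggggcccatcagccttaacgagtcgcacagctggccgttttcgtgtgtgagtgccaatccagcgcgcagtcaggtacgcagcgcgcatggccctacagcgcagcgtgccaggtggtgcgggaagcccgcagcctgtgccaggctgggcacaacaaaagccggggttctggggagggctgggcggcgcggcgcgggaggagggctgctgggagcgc

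The genotype comparison was made separately in sham and injured kidneys, and both comparisons reuse the arrays of the IRI comparisons above. In sham kidneys 1 of 8 genes passed, where 8.85% of all genes did in either direction and 3.73% were lower. That gene was Lcn2, 3.19-fold lower in KO sham than in WT sham (95% CI of the log2 fold change -2.58 to -0.77, -1.67 ± 0.41, limma adjusted p = 0.0334), and its intron-crossing probe gave -1.96 ± 0.41 (adjusted p = 0.0218 over all probes). The Lcn2 call was lost on leaving out any 1 of the 6 sham arrays, with log2 fold changes of -1.86 to -1.57 and adjusted p of 0.0581 to 0.118. Havcr1 differed by -3.14 ± 1.15 (adjusted p = 0.122), Timp1 by -1.91 ± 0.60 (adjusted p = 0.0775) and Spp1 by -0.73 ± 0.22 (adjusted p = 0.0651), and none of these passed. Arrays of the genotypes were apart for 6 of the 8 genes, 5 lower and 1 higher in KO, where 42.7% of all genes had groups apart. Clu (0.14 ± 0.15) and Igfbp7 (0.06 ± 0.14) had overlapping groups, and the Igfbp7 value was -0.08 after quantile normalization.

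After injury 0 of 8 genes passed by limma between KO IRI and WT IRI, where 1.93% of all genes did, while 6 had an unadjusted p under 0.05. The share of all genes with an unadjusted p under 0.05 is not given here, so the count of 6 has no share to be read against. Havcr1 was at -3.34 ± 1.15 (adjusted p = 0.147), Timp1 at -1.82 ± 0.60 (adjusted p = 0.133), Lcn2 at -1.30 ± 0.41 (adjusted p = 0.121), Clu at -0.67 ± 0.15 (adjusted p = 0.054) and Spp1 at -0.52 ± 0.22 (adjusted p = 0.207). The sixth, Timp2, was on the higher side in KO at 0.42 ± 0.16 (adjusted p = 0.177), and its other probe gave 0.04 ± 0.13. Groups were apart for Lcn2 and Clu, both lower in KO, where 21.7% of all genes had groups apart. Without KO IRI replicate 3, Havcr1 (-4.80, adjusted p = 0.031), Timp1 (-2.59, adjusted p = 0.0262) and Clu (-0.83, adjusted p = 0.0243) passed. Without WT IRI replicate 2, Lcn2 passed (-1.79, adjusted p = 0.0285). KO IRI replicate 3 was the highest of its group for 6 of the 8 genes and replicate 1 the lowest for 7. The shares of all genes with these orders are not given here. Replicate 1 was in row 1 of the slide and replicates 2 and 3 in row 2, and any part of row was not tested.

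The size of the IRI response itself differed between genotypes for 0 of 8 genes by limma, where 0.0694% of all genes passed, and Clu alone had an unadjusted p under 0.05. The share of all genes under that unadjusted cutoff is not given here either. For Lcn2 the KO response minus the WT response was 0.37 (95% CI -0.92 to 1.65), for Timp1 0.09 (95% CI -1.79 to 1.97) and for Havcr1 -0.19 (95% CI -3.81 to 3.43). These intervals are wide, and they do not show that the responses were alike. Within each genotype IRI and sham arrays were apart for 6 of the 8 genes in KO (5 higher, 1 lower) and 4 in WT (all higher), where 35.7% and 32.3% of all genes had groups apart.

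**Figure D3:**
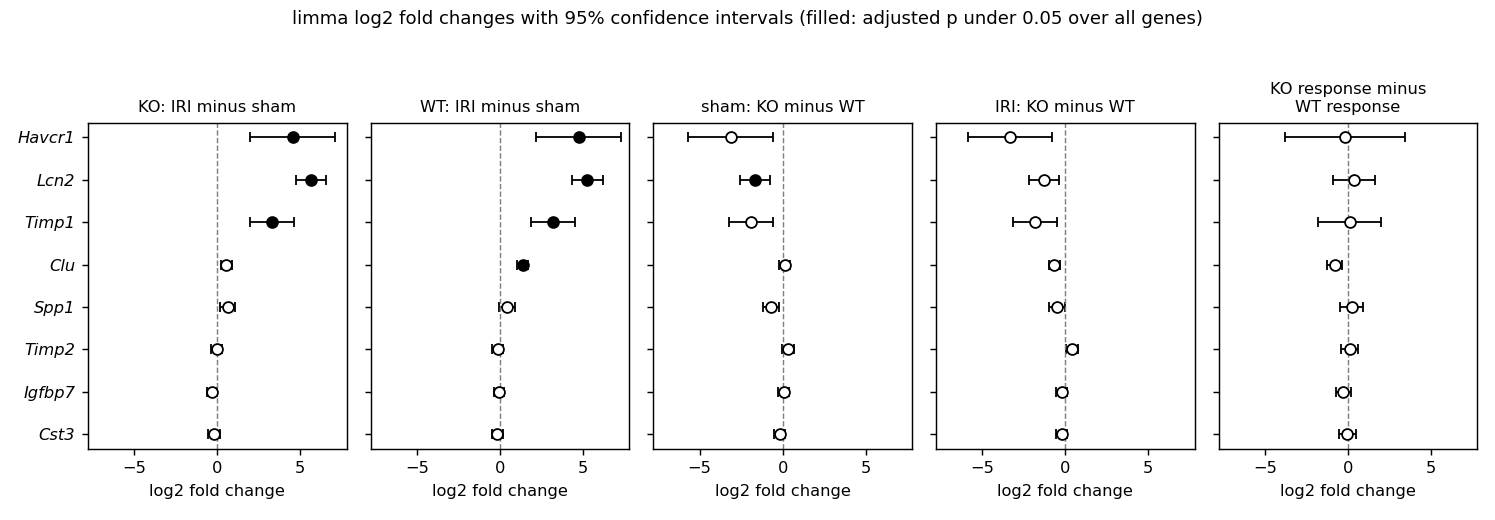
limma log2 fold changes (horizontal axis) with 95% confidence intervals for the 8 genes (rows) in 5 comparisons; filled points passed an adjusted p under 0.05 over all genes. Havcr1, Lcn2 and Timp1 are filled in both IRI panels, Clu in WT alone, Lcn2 alone in KO sham against WT sham, and none in the last 2 panels.

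**Figure D4:**
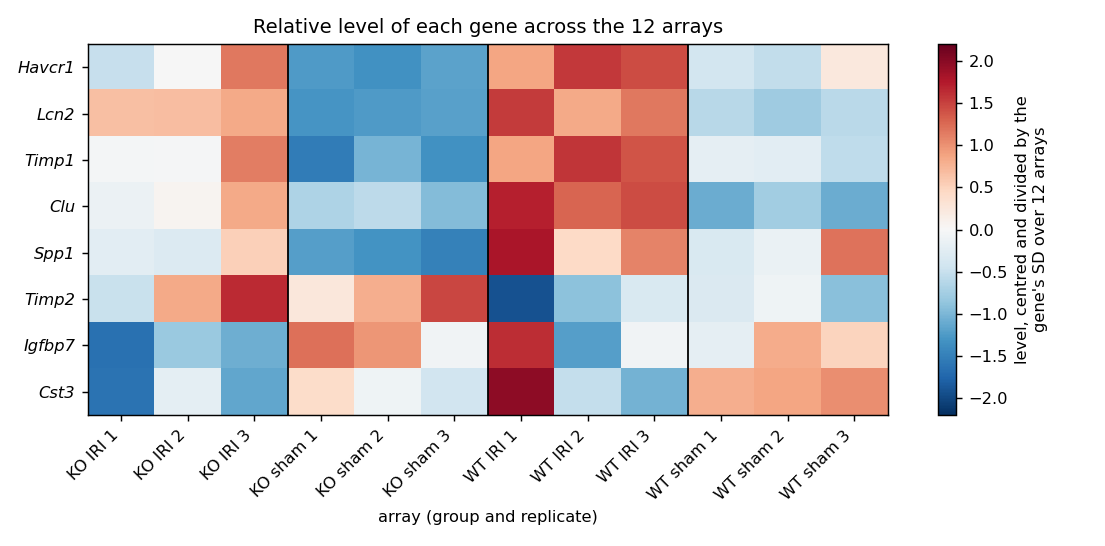
Level of each gene (rows) on each of the 12 arrays (columns), centred and divided by the gene's SD over the arrays, with red above and blue below the gene's mean. Among KO IRI arrays replicate 3 is reddest for Havcr1, Timp1 and Timp2, and among WT IRI arrays replicate 1 is high for Clu, Spp1, Igfbp7 and Cst3 and low for Timp2.

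The proteases that the TIMPs inhibit, with related regulators, included several large responders. For this and the following lists, the shares of all genes that passed were 2.1% higher and 4.05% lower in KO IRI, 6.08% higher and 5.9% lower in WT IRI, and 5.12% higher and 3.73% lower in KO sham against WT sham. Of 13 such genes 3 rose and 0 fell in KO IRI and 6 rose and 1 fell in WT IRI, with medians of 0.91 and 1.02. Mmp3, which encodes stromelysin-1, rose by 2.46 ± 0.34 in KO and 3.06 ± 0.34 in WT on the log2 scale. Mmp7, which encodes the epithelial protease matrilysin, rose by 5.51 ± 0.78 in WT and was at least 13.0-fold higher in KO IRI, where no KO sham array measured it above background. Mmp10 was at least 2.24-fold higher in WT IRI on the same ground, since no WT sham array measured it. Mmp9, which encodes gelatinase B, the partner of NGAL in urine complexes, rose by 2.99 ± 0.65 in WT, although only 1 of 3 WT sham arrays measured it. Timp4 rose by 1.49 ± 0.30 in KO. In sham kidneys Mmp7 was at least 2.60-fold lower in KO than in WT.

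Receptors that take up filtered NGAL, with clusterin receptors and Mmp9, fell in part. Of 6 genes 3 fell and 0 rose in KO IRI, and 2 fell and 1 rose in WT IRI. Lrp2, which encodes the endocytic receptor megalin, fell by 0.98 in KO and by 0.82 in WT, and Cubn, which encodes its partner cubilin, fell by 0.66 and by 0.57. Slc22a17, which encodes an NGAL receptor, fell by 0.53 in KO. The proximal tubule markers include Lrp2 and Cubn, so their sum partly restates these falls. That sum was 521 to 592 in KO IRI, 830 to 950 in KO sham, 484 to 541 in WT IRI and 637 to 735 in WT sham kidneys. Of the 7 markers 4 fell and 0 rose past the threshold in each genotype. The means of Slc22a6 went the other way, at 7.39 in KO IRI and 7.33 in KO sham kidneys. They were 7.25 in WT IRI and 6.90 in WT sham kidneys. Whether proximal tubule cell content had a part in the falls of Lrp2, Cubn and Slc22a17 was not tested. Lrp8 was higher in KO sham than in WT sham (0.62 ± 0.13).

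Among 18 other injury markers tested, 2 rose and 2 fell in KO IRI and 4 rose and 3 fell in WT IRI. The matricellular gene Ccn1 rose by 1.85 ± 0.34 in KO and 1.67 ± 0.34 in WT, and Lgals3, which encodes galectin-3, by 1.01 ± 0.16 and 1.53 ± 0.16. The distal tubule gene Egf fell by 1.21 in KO and by 1.09 in WT, and Calb1 by 0.90 in KO and by 0.86 in WT. Il6, which encodes a cytokine, rose by 5.54 ± 1.29 in WT with 2 of 3 WT sham arrays above background, and the chemokine gene Cxcl10 fell by 2.65 in WT. In sham kidneys 4 of the 18 were lower and 1 higher in KO than in WT. Cxcl10 (-4.64 ± 0.66), Ccl2 (-2.93 ± 0.53), B2m (-1.53 ± 0.30) and Ccn1 (-1.41 ± 0.34) were the lower ones.

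The remaining lists hold receptors of osteopontin, the insulin-like growth factor axis, cystatins with their targets, and relatives of Havcr1. Of 9 osteopontin receptors 1 rose in each genotype, the integrin gene Itga5 (0.78 ± 0.18 in KO and 0.98 ± 0.18 in WT), and Itga4 fell by 2.03 in WT. Itga4 read 0.57, 0.76 and -1.25 in WT sham kidneys, so its fall too rests mostly on WT sham replicates 1 and 2. Cd44 was lower in KO sham than in WT sham (-2.09 ± 0.56). Of 10 insulin-like growth factor genes 0 passed in KO IRI and 1 in WT IRI, Igfbp6 (0.67 ± 0.18), which was also higher in KO sham than in WT sham (0.85 ± 0.18). Of 11 cystatins and cathepsins 0 passed in KO IRI. In WT IRI Cstb rose (0.70 ± 0.20) and Cst7 fell by 3.66, with 1 of 3 WT IRI arrays above background. Cst7 read -1.73, -1.65 and -4.82 in WT sham kidneys, so its differences from WT sham rest mostly on replicates 1 and 2. Ctss (-2.06 ± 0.27), Ctsc (-1.11 ± 0.23) and Cst7 (-3.39 ± 0.82) were lower in KO sham, where 1 of 3 KO sham arrays measured Cst7 above background. Of 4 Havcr1 relatives and sheddases tested 0 passed after IRI in either genotype, and the immune receptor gene Havcr2 was lower in KO sham (-3.05 ± 0.29).

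**Figure D5:**
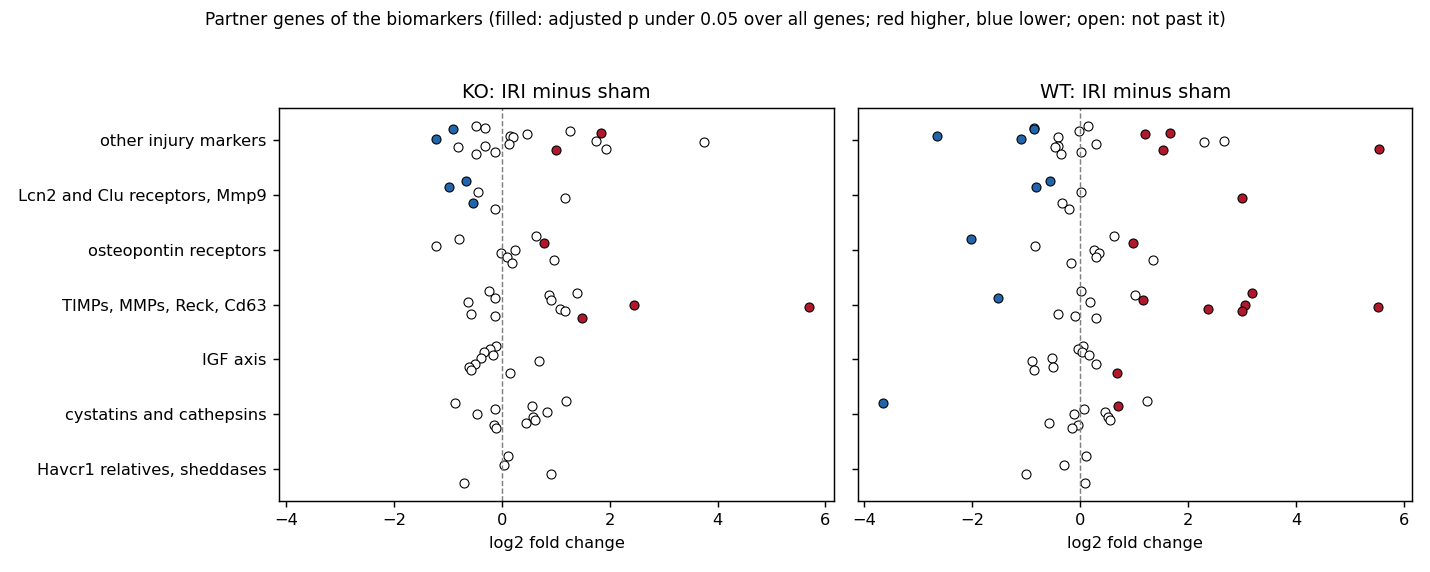
log2 fold changes after IRI (horizontal axis) of the partner genes, 1 point per gene in rows by list, in KO kidneys on the left and WT kidneys on the right. Red points rose and blue points fell past an adjusted p under 0.05 over all genes, and open points did not pass; Mmp9 is in 2 lists.

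The genes with the most similar profiles were found by the root mean square difference of centred levels over the 12 arrays, among 14381 genes with an ordinary symbol that were above background on all arrays. For Havcr1 they were Krt20 (1.21 log2 units), a keratin gene, Timp1 (1.37) and S100a8 (1.42), a neutrophil and monocyte gene. For Lcn2 they were the acute-phase gene Saa1 (0.78), Lrg1 (0.87) and Krt20 (0.95). For Timp1 they included the immediate early gene Egr2 (0.60) and Mmp19 (0.86). For Clu they included Fndc4 (0.11) and Pea15a (0.12), and for Spp1 they were Eif1a, Tnfrsf1a and Ywhah (0.14 to 0.15). Timp2 lay nearest Fxyd1 (0.09), Igfbp7 nearest Ftl1 (0.04) and Cst3 nearest Ifnar2 (0.07), which are small distances because those genes varied little. Of the 24 nearest genes, 3 for each of the 8, 17 were found again after quantile normalization, and Fndc4, Eif1a and Ifnar2 were among those that were not.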

How the data were processed

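Kidney RNA of 12 mice was labelled with Cy3 and hybridised to one-colour Agilent arrays. Per the file headers, the deposited spot intensity was made by Feature Extraction 10.7.1.1, background-corrected within each array and not scaled between arrays. The authors' own log2 values, in another deposited table, have a median of 5.71 on every array, and their correlation with the log2 scanner signal was 0.99953 or more. The submitters' processing notes name limma without a version. The steps behind that table are not stated in the labels.

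Control and outlier spots were left out, spots of a probe were averaged, and each array's 75th percentile was subtracted from its log2 processed signals. Of 56605 probes, 39449 were well above background on at least 3 arrays, and the kept probe with the highest mean stood for its gene. Symbols were updated by accession through RefSeq for 32994 probes. The model, in limma 3.58.1 and R 4.3.3, had 1 coefficient per group over all 12 arrays (8 residual degrees of freedom), with two-sided tests, Benjamini-Hochberg adjustment over 25947 genes and a threshold of 0.05. The fit was tested on simulated data. The labels call the 3 samples of a group independent, and 3 arrays per group limit the precision. A bound sets the mean of the group measured above background against the larger of 2 signals on each array of the other group, the probe itself and the dimmest probe well above background. The members and gene lists were chosen with earlier results of these data known. Named genes are the 8 members, Jaml, up to 4 called genes with the largest change per partner list and comparison, and the 3 genes nearest each member in profile. Some genes that this rule takes are not reported here.

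Alternatives covered background correction, normalization, filtering, probe choice, groups in the fit, array weights, a replicate block and leaving out each array. Array weights by limma's default method stopped before convergence. After those counts were seen, gene-by-gene weights were added as a further alternative, and both are reported. Slide as a fixed block could not be fitted, because slide equals genotype.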

Additional observations from a re-analysis of the deposited data

How the results depend on the processing

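Over the alternatives the 8 genes' values kept direction and side of the threshold in 917 cases, lost a call in 36, gained one in 51 and changed sign in 36. Every sign change was in a value that had not passed. Averaged over genotypes, Havcr1, Lcn2, Clu and Timp1 passed in all 21 alternatives.

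Genes past the threshold, with all arrays in the fit 1598 in KO IRI against KO sham and 3109 in WT IRI against WT sham, were 2442 and 417 with only the groups compared in the fit. In KO sham against WT sham that fit gave 4042 against 2297, and in KO IRI against WT IRI 35 against 501. Array weights by the default method, which did not converge, gave 7169 in KO IRI against KO sham, 15717 in WT IRI against WT sham, 12076 in KO sham against WT sham, 8003 in KO IRI against WT IRI, 6566 in the interaction and 13706 averaged over genotypes. Gene-by-gene weights, chosen after seeing the data, gave 5697, 8880, 9889, 1860, 1350 and 10488 in the same order. These counts depend on the weighting, the cause was not tested, and they were not used for any call. Normexp background correction gave 332 in KO IRI against WT IRI and 37 in the interaction, against 18. The interaction count was 10 with probes above background on all 12 arrays and 9 with the mean of a gene's probes.

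Leaving out 1 array gave 454 to 3250 in KO IRI against KO sham, 846 to 4675 in WT IRI against WT sham, 649 to 4405 in KO sham against WT sham, 146 to 971 in KO IRI against WT IRI, 4 to 148 in the interaction and 3494 to 6889 averaged over genotypes. Of the 8 genes, leaving out 1 array gave 1 to 4, 3 to 4, 0 to 3, 0 to 3, 0 to 0 and 4 to 6 past the threshold in the same order. In KO IRI against KO sham 5 of the 8 passed with quantile normalization, the authors' values and both kinds of weights. In KO sham against WT sham 2 passed with normexp, quantile normalization or the authors' values, 3 with only the groups compared, and 6 with both kinds of weights. In KO IRI against WT IRI 1 passed with normexp, with probes above background on all 12 arrays and with gene-by-gene weights, and 5 with default weights. In the interaction 1 passed with default weights, namely Clu (-0.60, adjusted p = 0.0153).

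Sign changes were as follows. Timp2 was 0.009 in WT IRI against WT sham, 0.145 in KO IRI against KO sham and 0.077 averaged over genotypes with the mean of its probes, 0.008 in KO IRI against KO sham with quantile normalization or the authors' values, and -0.160 to 0.099 on leaving out 1 array. Igfbp7 was -0.179 to 0.072 in WT IRI against WT sham on leaving out 1 array, and in KO sham against WT sham -0.076 with quantile normalization, -0.075 with the authors' values, -0.045 with default and -0.005 with gene-by-gene weights. Cst3 in KO IRI against WT IRI was 0.012 with default weights. In the interaction Timp1 was -0.30 with normexp, Timp2 was -0.09 with default weights, and Cst3 was 0.11 with quantile normalization or the authors' values, 0.26 with default and 0.19 with gene-by-gene weights. Leaving out 1 array moved the interaction of Havcr1 over -1.66 to 0.93, Timp1 -0.67 to 0.48, Lcn2 -0.12 to 0.89, Spp1 -0.012 to 0.37, Timp2 -0.012 to 0.25 and Cst3 -0.16 to 0.15.

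The split of calls into higher and lower in KO IRI against KO sham was 546 and 1052, against 805 and 819 with quantile normalization. In KO sham against WT sham it was 1329 and 968, against 828 and 1093. Deviations of same-numbered samples had weak correlations of both signs (18 pairs, r from -0.267 to 0.151). With so few arrays per group, this range cannot decide whether the numbers pair samples. With the replicate block 279 genes passed in KO IRI against WT IRI and 5 in the interaction.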

Other observations

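Markers of other cell types, given as summed signal in units of the 75th percentile, moved with the groups. Erythrocyte markers were 11.4 to 34.4 in KO IRI, 9.28 to 16.2 in KO sham, 40.1 to 75.3 in WT IRI and 7.23 to 10.7 in WT sham kidneys, and 0 of 3 rose past the threshold in KO IRI and 3 of 3 in WT IRI, a difference not tested over the list. Adipocyte markers were 3.66 to 4.29 in KO IRI, 0.571 to 1.87 in KO sham, 8.42 to 12.8 in WT IRI and 0.376 to 0.63 in WT sham kidneys. In IRI kidneys this sum follows its brightest marker, Cidec, and 1 of 4 rose in KO IRI and 2 of 4 in WT IRI. Lep averaged -2.10 in KO IRI and -1.95 in KO sham kidneys, and -1.95 in WT IRI and -1.88 in WT sham kidneys. Adipoq averaged -4.03 in KO IRI and -3.25 in KO sham kidneys, and -2.19 in WT IRI and -5.24 in WT sham kidneys. T and NK cell markers were 0.535 to 0.722 in KO IRI and 0.816 to 1.69 in KO sham kidneys. They were 0.6 to 0.687 in WT IRI and 1.53 to 12.9 in WT sham kidneys, and 4 of 4 fell in WT IRI. On WT sham replicates 1, 2 and 3 their mean centred log2 level was 3.47, 3.49 and 0.49. Replicate 3 thus stood well below replicates 1 and 2. Macrophage markers were 15.1 to 17.9 in KO IRI, 21.1 to 23.8 in KO sham, 16.8 to 22.9 in WT IRI and 20.8 to 23.9 in WT sham kidneys. Their mean centred log2 level was -0.12 to 0.20 in KO IRI, -0.68 to -0.26 in KO sham, 0.14 to 0.24 in WT IRI and 0.18 to 0.38 in WT sham kidneys. In KO this ran against the sum, which follows the brightest marker, Csf1r. Of the 5 macrophage markers 1 rose and 1 fell in KO IRI, and 1 rose and 2 fell in WT IRI. Cd68 averaged 2.00 in KO IRI and 0.07 in KO sham kidneys, and 2.67 in WT IRI and 1.22 in WT sham kidneys. Csf1r averaged 3.35 and 4.30 in KO IRI and KO sham kidneys, and 3.27 and 3.93 in WT IRI and WT sham kidneys. Whether these cells carry any of the biomarker differences was not tested.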
